A study of Homo sapiens with 12 samples.

Results

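In control K562 cells, 2251 chromosomal intervals were listed as peaks of both GATA1 and TAL1 and stood apart from every other listed interval. They were selected on the deposited peak lists. An interval was kept if it had the same start and end in the GATA1 and the TAL1 list and if no other interval of either list lay within 12.5 kb on either side. Those 2251 intervals were 9.13% of the 24654 distinct intervals on chromosomes 1 to 22 and X. They were also 32.0% of the 7029 intervals present in both lists (95% exact interval 30.9 to 33.1%). Presence in both lists and distance to the neighbours chose them, so neither is a finding here, and values of either are descriptions.

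K562 is a human erythroleukemia line that expresses erythroid genes. The series holds 12 ChIP-seq libraries of GATA1, TAL1, LDB1 and H3K27ac, with an input, from control cells and from cells carrying lentiviral short hairpin RNAs against GATA1 or TAL1. The lists used were those of GATA1 and TAL1 in control cells, with 1 library each, and the other 10 libraries were not analysed here. The labels call these cells control and do not say whether they carried a vector. Per the labels' protocols, nuclei were cut with micrococcal nuclease and the precipitated chromatin was mono- or dinucleosomal in size, which was not measured here.

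GATA1 is a zinc finger factor that reads GATA motifs and drives erythroid and megakaryocytic gene programmes. TAL1, of the basic helix-loop-helix family, pairs with an E protein to read E-boxes, and through LMO2 and LDB1 it can be held on DNA together with GATA1. Erythroid regulatory elements may be grouped along a locus, as in locus control regions, or may be single elements. The isolated shared intervals are single only in having no other listed interval within 12.5 kb. Whether they are regulatory elements was not tested. The lists give no height, summit or read number, and the depth of the libraries is unknown. An interval missing from a list is therefore not shown to be unoccupied. Because each factor had 1 library, no value has a replicate error and no difference was tested. The intervals given for shares and medians (exact binomial, 95%) treat peaks as units, describe counting variation in these lists only and are not adjusted for the number of comparisons. No gene annotation or sequence of hg19, the build of the lists, was used here, so genes and motifs are not assigned to the intervals.

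Isolated shared intervals spanned 85 to 1360 bp and covered 946.6 kb in all. Their median width was 404 bp (interval 394 to 411 bp), with quartiles of 305.5 and 512 bp, and 26.9% were wider than 500 bp. Isolated intervals in the GATA1 list alone (6008) had a median of 294 bp (288 to 300 bp), and 15.8% of them were wider than 500 bp. Those in the TAL1 list alone (858) had a median of 307 bp (297 to 317 bp). In each of these classes, intervals with a neighbour within 12.5 kb were narrower. Their medians were 357 bp (352 to 364 bp) for 4778 shared, 247 bp for 9732 GATA1-only and 248 bp for 1027 TAL1-only intervals. This did not hold for those whose nearest interval was 5 to 12.5 kb away. Their medians were 427 bp (413 to 442 bp) for shared, 298 bp for GATA1-only and 303 bp for TAL1-only intervals, near the isolated values or above. Up to 500 bp from a neighbour the medians were 305, 211 and 199 bp. Narrow intervals were few among the isolated shared ones: the 10th percentile of their width was 230 bp, against 122 bp for isolated GATA1-only intervals and 166 bp for shared intervals that were not isolated. A shared interval has the same boundaries in both lists, so its width is 1 value and not a measure of either factor, and merging peaks before deposition would widen it. All 7029 TAL1 intervals that overlapped a GATA1 interval had its exact boundaries. How these common boundaries arose, by merging or otherwise, was not tested.

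**Figure D1:**
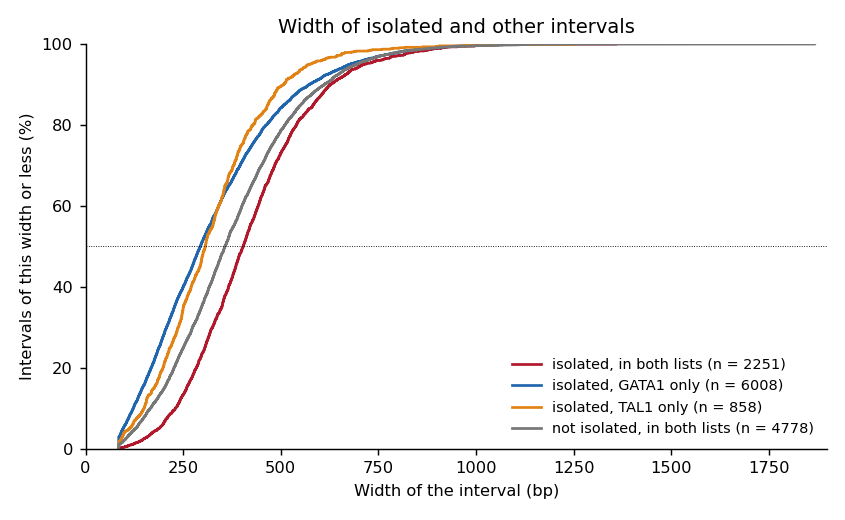
Cumulative share of intervals (%) by width (bp) for isolated intervals in both lists, isolated GATA1-only and TAL1-only intervals, and shared intervals that were not isolated. The curve of the isolated shared intervals lies farthest to the right up to the upper quartile, with a median of 404 bp against 294, 307 and 357 bp.

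The 5 widest isolated shared intervals measured 1360, 1156, 1126, 1094 and 1044 bp. The widest lay at 1p11.2 (chromosome 1, 121484100 to 121485459), beside the centromeric band. A shared interval lay 146.9 kb to its left, and on its right nothing was listed for 21.3 Mb, a stretch that takes in the centromere and the variable heterochromatin of 1q. No filter for repetitive or poorly mappable sequence was applied here, and whether this interval reflects occupancy was not tested. The interval of 1156 bp lay at 12q23.3 (chromosome 12, 106751364 to 106752519), 55.4 kb from the nearest other interval. That of 1126 bp lay at 6q22.31 (chromosome 6, 119030405 to 119031530), with GATA1-only intervals 31.8 kb to the left and 51.3 kb to the right. At 19q13.41 (chromosome 19, 51611075 to 51612168) an interval of 1094 bp was flanked by GATA1-only intervals as well. The interval of 1044 bp at 1p36.13 (chromosome 1, 17231173 to 17232216) was close to the limit of isolation, with a GATA1-only neighbour 13.7 kb away. The wide intervals thus lay in sparse and in dense surroundings alike: the numbers of other intervals within 500 kb were 1, 4, 14, 23 and 28 in the order given.

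The 5 narrowest measured 85 to 90 bp, at or near the smallest width in either list. They were at 7p15.2 (chromosome 7, 26552512 to 26552596), 8q22.3 (chromosome 8, 106110481 to 106110565), 12p13.33 (chromosome 12, 1772043 to 1772128), 2q14.3 (chromosome 2, 128786392 to 128786477) and 5q14.1 (chromosome 5, 79949491 to 79949580). The last of them was also remote, with 395.8 kb to its nearest neighbour.

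The share of isolated GATA1 intervals that were also in the TAL1 list differed with width. Over all widths 2251 of 8259 isolated GATA1 intervals (27.3%, 26.3 to 28.2%) were shared. The rule used this contrast, and the same share over all GATA1 intervals was 30.9%. In the narrowest of 10 width classes, 85 to 137 bp, 41 of 839 were shared (4.89%, 3.53 to 6.57%). At 237 to 283 bp it was 24.5% (21.6 to 27.6%), and at 428 to 492 bp 41.6% (38.2 to 45.0%). It did not go on upward from there. At 493 to 597 bp it was 41.4%, and in the widest class, 598 to 1360 bp, it was 36.4% (33.1 to 39.8%).

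Isolated GATA1 intervals were shared less often than GATA1 intervals with a neighbour within 12.5 kb. Sharing and isolation both chose the isolated shared intervals, so this contrast is a description and not a test. Over all widths 27.3% of isolated and 32.9% (32.2 to 33.7%) of other GATA1 intervals were in both lists, a difference of 5.67 percentage points. Isolated GATA1 intervals had a lower share than all the others together in 10 of 10 width classes. The 95% intervals of both groups overlapped at 237 to 283 bp and at 377 to 427 bp. In the narrowest class the shares were 4.89% of isolated and 13.6% of other GATA1 intervals, and in the widest they were 36.4% of isolated and 53.2% (50.1 to 56.4%) of other GATA1 intervals. The widest class had no upper limit: isolated GATA1 intervals in it reached 1360 bp and the others 1868 bp. Taken over all distances, isolated intervals were the wider ones. The width of a shared interval may itself depend on merging, so weighting by width gives a second description and not a corrected difference. With the other GATA1 intervals weighted to the width classes of the isolated ones, they were shared in 36.1% of cases and the difference was 8.81 points. This weighting was added after the shares by width were seen.

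**Figure D2:**
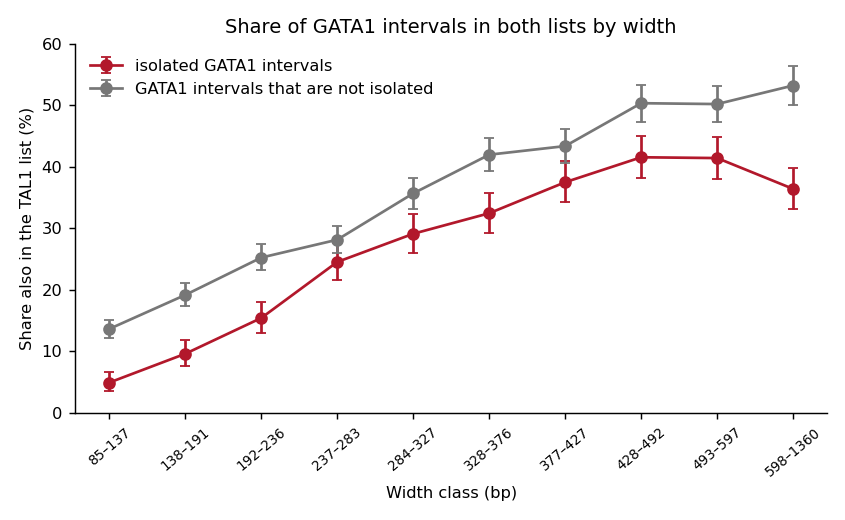
Share of GATA1 intervals also in the TAL1 list (%) by width class (bp), for isolated intervals and for those with another interval within 12.5 kb, with exact 95% intervals over peaks. The isolated intervals lie below the others in 10 of 10 classes and fall back to 36.4% in the widest class, where the others reach 53.2%. Class limits are those of isolated intervals, and in the widest class the others run to 1868 bp.

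Seen from the TAL1 list, the isolated shared intervals were the majority. Of 3109 isolated TAL1 intervals, 2251 (72.4%, 70.8 to 74.0%) were also GATA1 intervals. The share was 82.3% (81.3 to 83.3%) among TAL1 intervals that were not isolated and 78.9% over all TAL1 intervals. By width, the share of isolated TAL1 intervals also in the GATA1 list was 36.9% (28.0 to 46.6%) at 85 to 137 bp, 68.5% at 284 to 327 bp and 89.3% (85.5 to 92.4%) at 598 to 1360 bp. Unlike the share of isolated GATA1 intervals, this one was highest in the widest class.

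The distance to the nearest other interval ran from the limit of 12.5 kb to 2.99 Mb among the isolated shared intervals. Its median was 34.1 kb (32.5 to 36.3 kb; quartiles 20.2 and 73.6 kb). For isolated GATA1-only intervals the median was 33.2 kb (32.2 to 34.3 kb), and for isolated TAL1-only intervals it was 45.3 kb (40.3 to 49.5 kb). A distance of over 100 kb was found for 391 isolated shared intervals (17.4%), against 14.5% of isolated GATA1-only and 26.9% of isolated TAL1-only intervals. For 799 of them (35.5%) the nearest interval was within 25 kb. The empty stretch around an isolated shared interval, counted from its left to its right neighbour, had a median of 161.8 kb (quartiles 84.9 and 423 kb). That stretch was 153 kb for isolated GATA1-only and 206.8 kb for isolated TAL1-only intervals. On 6 chromosome ends an isolated shared interval was the outermost of all, and there 1 side alone was measured.

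Some shared intervals lay close to the limit of 12.5 kb, on either side of it. The 3 isolated shared intervals nearest to it had neighbours at 12510 bp (8q22.1), 12524 bp (7q35) and 12527 bp (17p13.3). The 3 shared intervals that just missed it had neighbours at 12494 bp (7p15.3), 12483 bp (19q13.32) and 12477 bp (22q13.1). All 6 nearest neighbours were GATA1-only intervals.

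The farther TAL1 intervals lay from any other interval, the smaller was the share of them that was also in the GATA1 list. Among TAL1 intervals 12.5 to 25 kb from their nearest neighbour, 799 were shared and 237 were not (77.1% shared, 74.4 to 79.6%). The share was 73.8% at 25 to 50 kb, 72.1% at 50 to 100 kb and 63.4% (57.9 to 68.5%) at 100 to 200 kb. Beyond 200 kb it was 62.3% (56.4 to 67.9%), with 180 shared and 109 TAL1-only intervals. The share of GATA1 intervals in both lists moved the other way or not at all. It was 26.7% (25.1 to 28.3%) at 12.5 to 25 kb, 26.5% at 25 to 50 kb, 26.4% at 50 to 100 kb and 29.1% at 100 to 200 kb. Beyond 200 kb it was 33.7% (29.7 to 37.9%). The 2 shares have the same numerator. Their denominators differ: GATA1-only intervals numbered 2196 at 12.5 to 25 kb and 354 beyond 200 kb, and TAL1-only intervals 237 and 109.

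The most remote shared intervals were also narrower than the rest. The median width was 415 bp (405 to 431 bp) at 12.5 to 25 kb, 416 bp at 25 to 50 kb, 395 bp at 50 to 100 kb, 384 bp at 100 to 200 kb and 335.5 bp (309 to 363 bp) beyond 200 kb. GATA1-only intervals in the same classes had medians of 295 bp in the first and 281.5 bp (260 to 304 bp) in the last. The gap in median width between shared and GATA1-only intervals was therefore smaller among the most remote ones.

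**Figure D3:**
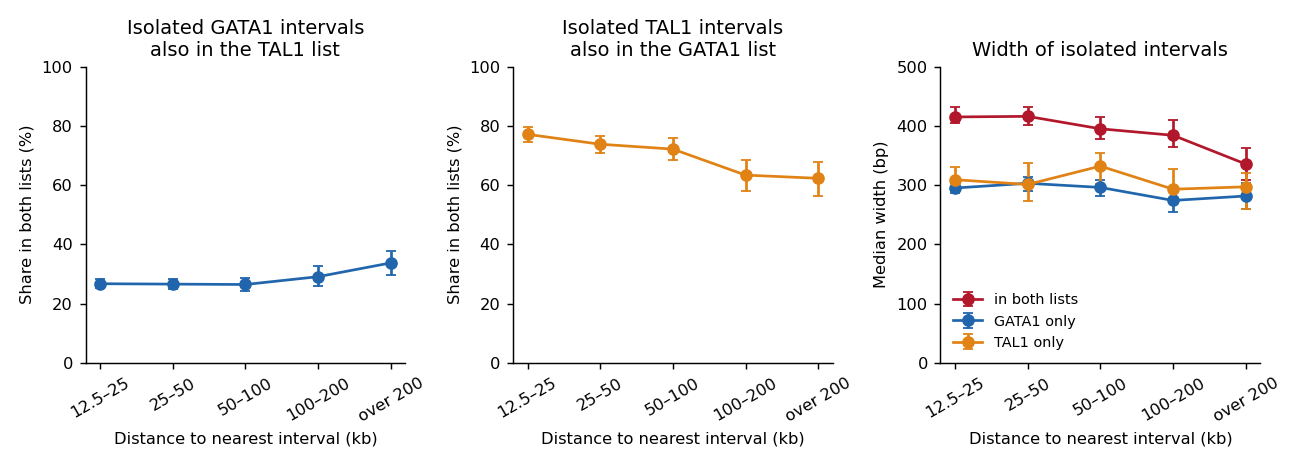
Isolated intervals by distance to the nearest other interval (kb): the share of GATA1 intervals and of TAL1 intervals present in both lists (%), and the median width (bp) of intervals in both lists, GATA1 only and TAL1 only, with 95% intervals over peaks. The share of TAL1 intervals is 77.1% in the nearest class and 62.3% beyond 200 kb, while the median width of shared intervals is 415 bp in the first and 335.5 bp in the last.

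At the far end, 18 isolated shared intervals (0.80%) had no other interval of either factor within 1 Mb. The same was true of 0.53% of isolated GATA1-only and 1.40% of isolated TAL1-only intervals. The 18 isolated shared intervals were on 13 chromosomes, and 4 of them were on X, which held 3.69% of all isolated shared intervals. Of the 18, 6 were in bands of the darkest Giemsa stain, which held 6.75% of all isolated shared intervals. Another 7 were in unstained bands, which held 57.8%. Their widths ran from 137 to 669 bp, with a median of 310.0 bp. The most remote lay at Xq21.31 (chromosome X, 89713059 to 89713727) and was 669 bp wide, with a GATA1-only interval 2.99 Mb to the left and a TAL1-only interval 6.74 Mb to the right. The next, at 3q24 (chromosome 3, 146214561 to 146214903), was 343 bp wide and had shared intervals as neighbours on both sides, 2.48 and 2.59 Mb away. At 2p25.3 (chromosome 2, 807465 to 807680) an interval of 216 bp was the first on its chromosome, with 2.29 Mb to the next. The interval at 12q14.1 (chromosome 12, 60538196 to 60538525) was 330 bp wide and lay 2.20 and 2.09 Mb from GATA1-only intervals. The fifth, at 7q11.21 (chromosome 7, 61968905 to 61969109), was 205 bp wide, with 5.79 Mb on the left, across the centromere, and 2.07 Mb on the right. Stretches of the assembly without sequence were not masked, so a gap over a centromere overstates the distance that could hold an interval. Repetitive or poorly mappable sequence beside a centromere was not filtered either.

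Few isolated shared intervals were in bands where such gaps are common. Centromeric bands held 7 of them and variable heterochromatin 6, which together made 0.578% (0.308 to 0.986%). The stalks of the acrocentric chromosomes held 0 of 2251, which allows a share of up to 0.164%. Among isolated GATA1-only intervals 0.583% and among all intervals 0.572% lay in these bands.

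The intervals beyond the empty stretch were mostly in the GATA1 list (90.9%). The nearest neighbour of an isolated shared interval was GATA1-only in 1430 cases (63.5%), shared in 616 (27.4%) and TAL1-only in 205 (9.11%). The nearest neighbour was thus in the TAL1 list in 36.5% of cases (34.5 to 38.5%), against 33.9% (32.7 to 35.1%) for isolated GATA1-only intervals. For isolated TAL1-only intervals the value was 39.5% (36.2 to 42.9%). Of all 24654 pooled intervals, 22769 were in the GATA1 list and 8914 in the TAL1 list. The makeup of the nearest neighbours of isolated shared intervals was thus close to that of the pool. GATA1-only intervals stood on both sides in 40.3% of the 2245 cases with 2 neighbours, against 43.8% for isolated GATA1-only intervals. In 65.1% of cases (63.1 to 67.1%) the nearest neighbour was itself isolated. The value was much the same for isolated GATA1-only (63.05%) and isolated TAL1-only intervals (65.5%). Of all pooled intervals, 37.0% were isolated, which is not a like reference. By the rule, the nearest neighbour of an isolated interval already has over 12.5 kb free on the facing side. A higher value for such neighbours is therefore built in, and no grouping of isolated intervals is read from it.

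Some isolated shared intervals followed each other along a chromosome. The nearest other isolated shared interval was a median of 243.8 kb away (quartiles 92.3 and 590.5 kb). In 386 instances 2 of them followed each other with nothing listed between, and 694 (30.8%) belonged to 308 such runs. Other classes of interval were not counted in this way, so these numbers have no reference here. The longest runs had 5 intervals, and there were 4 of them, at 2q24.1, 9q13 to 9q21.11, 10p12.1 and 13q14.3. These runs were picked out after the values were seen. At 2q24.1 the 5 intervals were 472, 486, 234, 398 and 554 bp wide, and the last 4 were separated by 66.1, 22.6 and 22.6 kb. At 9q13 to 9q21.11 they were 193 to 332 bp wide, and gaps of 983.1 kb and 1632 kb separated the first 3, with no interval of either factor between them.

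Over a wider range, the surroundings of isolated shared intervals were less crowded than those of isolated GATA1-only intervals. Within 500 kb on either side there were a median of 13 other intervals (quartiles 7 and 22), against 16 (9 and 24) around isolated GATA1-only intervals. Isolated TAL1-only intervals had a median of 11 and shared intervals that were not isolated a median of 21. Another shared interval lay in that range for 2014 of the isolated shared intervals (89.5%), against 91.0% of isolated GATA1-only intervals. No other interval at all lay in it for 42 (1.87%). The GATA1 intervals around isolated shared intervals were themselves shared in 30.9% of cases, and those around isolated GATA1-only intervals in 29.9%. These counts take each neighbour as often as it falls in a range, and the ranges overlap.

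Where intervals were many, an isolated GATA1 interval was shared less often and an isolated TAL1 interval more often. Of isolated GATA1 intervals with 1 to 4 others within 500 kb, 303 of 850 were shared (35.6%, 32.4 to 39%). The share was 29.3% with 5 to 9 others, 26.6% with 10 to 19, 24.5% (22.8 to 26.2%) with 20 to 39 and 23.1% (18.9 to 27.6%) with 40 or more. With 0 others it was 29.4% (22.1 to 37.6%), from 143 intervals. The share of isolated TAL1 intervals in both lists was 55.3% (43.4 to 66.7%) with 0 others, 70.5% with 1 to 4, 66.8% with 5 to 9, 74.1% with 10 to 19, 76.4% with 20 to 39 and 79.5% (70.8 to 86.5%) with 40 or more. The number of others is made up mostly of GATA1 intervals, so the count and the shares are not separate measurements of the 2 lists. Median widths of the shared intervals were 361 bp with 0 others, 371 bp with 1 to 4 and 417 bp with 40 or more.

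**Figure D4:**
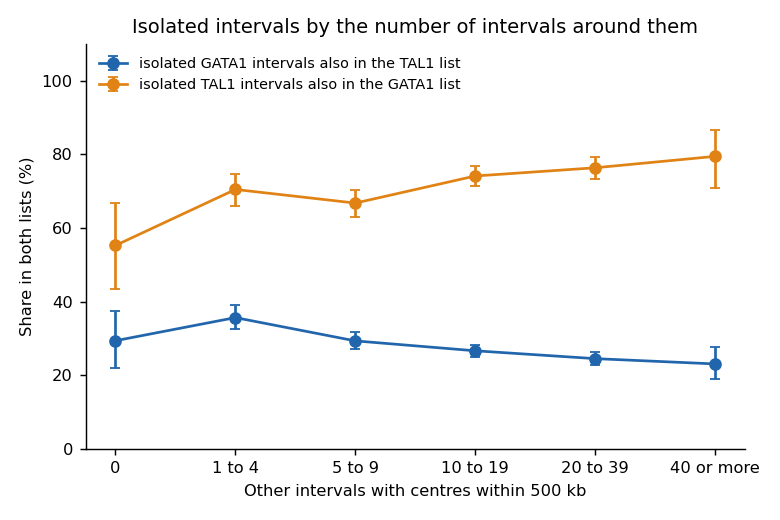
Share of isolated intervals present in both lists (%) by the number of other intervals with centres within 500 kb, for isolated GATA1 and isolated TAL1 intervals, with exact 95% intervals over peaks. From 1 to 4 others to 40 or more, the share of GATA1 intervals is 35.6% and 23.1%, and that of TAL1 intervals is 70.5% and 79.5%.

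Isolated shared intervals were found on all 23 chromosomes and all 41 arms examined, at 0.741 per Mb overall. By arm, leaving out centromeric, variable and stalk bands, the highest density was 2.13 per Mb, on 19q. The next were 19p with 1.95, 22q with 1.74 and 17q with 1.59 isolated shared intervals per Mb. The lowest densities were 0.282 per Mb on 13q, then 0.317 on 9p and 0.412 on Xq. The densest and the sparsest arm differed 7.56-fold. For all intervals of both lists the highest and lowest arm differed 10.6-fold. Arms and bands are named here for their values.

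The share of isolated GATA1 intervals that were shared lay between 21.0% and 43.7% over the arms. It was highest on Xp, at 45 of 103 (43.7%, 33.9 to 53.8%), followed by 14q at 65 of 177 (36.7%, 29.6 to 44.3%) and 22q at 58 of 166 (34.9%, 27.7 to 42.7%). These were the 3 arms whose interval lay above the overall 27.3%. The 3 arms with an interval below it were 6q (62 of 295, 21.0%, 16.5 to 26.1%), 7q (74 of 341, 21.7%, 17.4 to 26.5%) and 1p (128 of 552, 23.2%, 19.7 to 26.9%). On X as a whole, 83 of 142 shared intervals (58.5%) were isolated, and on chromosome 1 this was true of 229 of 963 (23.8%). It was true of 32.0% of all shared intervals, 48.3% on chromosome 13 and 50.4% on chromosome 14. Isolation is set by spacing, so this share is not separate from density. All intervals numbered 2.69 per Mb on X and 13.8 per Mb on chromosome 1. Median widths of isolated shared intervals ran from 366 bp on chromosome 8 to 435 bp on chromosome 6. K562 cells carry gains and losses of chromosome segments, and copy number was not measured.

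**Figure D5:**
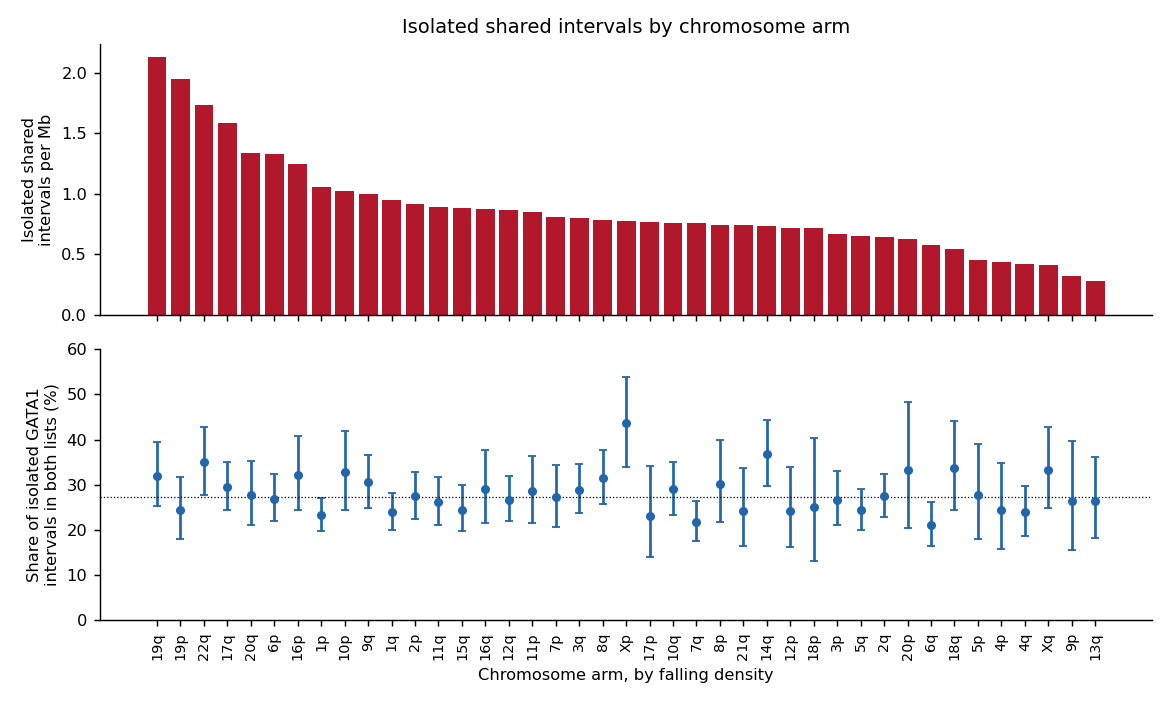
Isolated shared intervals per Mb on 41 chromosome arms (bars, in falling order) and, below, the share of isolated GATA1 intervals that are in both lists (%, points, with exact 95% intervals; dotted line, 27.3% overall). Density falls from 2.13 per Mb on 19q to 0.282 per Mb on 13q, while the intervals of 6 arms leave out the overall share, with Xp highest at 43.7%.

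By Giemsa stain, isolated shared intervals numbered 1.01 per Mb in unstained bands and 1.06 per Mb in the faintest stained. In the next 2 grades they numbered 0.822 and 0.552 per Mb, and in the darkest bands, which are poor in genes as a class, 0.305 per Mb. All intervals numbered 11.4 per Mb in unstained and 2.92 per Mb in the darkest bands. The share of isolated GATA1 intervals in both lists was nearly level over these classes, from 26.1% (23.3 to 29.2%) in the faintest stained to 29.9% (27.2 to 32.7%) in the middle grade, with 27.9% (24.2 to 31.9%) in the darkest. The share of all shared intervals that were isolated was 31.3% in unstained and 38.7% in the darkest bands. Median widths were 402 bp in unstained and 407.5 bp in the darkest bands.

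Of 851 bands, 623 (73.2%) held an isolated shared interval, and 151 held 1 only. In 10 bands they were the only intervals of either factor. The largest number in a band was 14, reached at 11p15.4 (chromosome 11, 2800001 to 10700000) and at 6p22.3 (chromosome 6, 15200001 to 25200000), which held 137 and 152 intervals in all. Among the bands with 12 or more, the densest per length were 9q34.11 and 17q21.31. Band 9q34.11 (chromosome 9, 130300001 to 133500000) had 12 in 3.2 Mb, or 3.75 per Mb, and 17q21.31 (chromosome 17, 40900001 to 44900000) had 13 in 4 Mb, or 3.25 per Mb. Towards chromosome ends there was little concentration. Within 5 Mb of an end lay 9.55% of isolated shared intervals, against 8.99% of isolated GATA1-only intervals and 9.13% of shared intervals that were not isolated. That part of the chromosomes makes up 7.57% of the sequence.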

How the data were processed

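The authors deposited, for each library, a list of peak intervals with chromosome, start and end in 3 columns, without a header, score, fold or p-value. Trimmomatic, Bowtie2, MACS2, deepTools and the build hg19 are named without versions, thresholds or roles, per the submitters' processing notes. The number of reads, and whether reads were pooled for peak calling, are not given in the sources used here, so depth is unknown. Lists were pooled by identical start and end in Python 3.11.15 (numpy 2.4.6, pandas 2.3.3). The 4 mitochondrial TAL1 intervals were left out. All 7029 TAL1 intervals that overlapped a GATA1 interval by at least 1 bp (bedtools 2.31.1) matched it exactly. Isolation means over 12500 bp, edge to edge, to the nearest pooled interval. Exact (Clopper-Pearson) 95% intervals came from scipy 1.17.1, and those of medians from binomial order statistics. Both cover counting variation over peaks only. The isolated GATA1 intervals were cut into 10 width classes of about equal size. Bands are those of circlize 0.4.16 and chromosome lengths those of GenomeInfoDb 1.38.1. Distances and intervals were checked on simulated lists. Figures used matplotlib 3.10.9. Positions count from 1. Intervals named by position are the 5 most remote, widest and narrowest and the 3 nearest to the limit on each side. The members and measures were chosen with earlier results of these data known.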

Additional observations from a re-analysis of the deposited data

Results flagged for a closer look

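The TAL1 list also held 4 intervals on the mitochondrial sequence, outside the chromosomes on which isolated shared intervals were sought. The GATA1 list held 0 there, so none of the 4 was in both lists. They stand out only because they lie in data that no comparison used. Their source was not tested.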

How the results depend on the processing

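The distance that defines isolation set the number of isolated shared intervals, 2251 at 12.5 kb, 1452 at 25 kb and 813 at 50 kb. The median distance to the nearest interval was 20.8 kb at a limit of 5 kb, 57.1 kb at 25 kb and 96.8 kb at 50 kb, which follows from the limit. The share of isolated TAL1 intervals also in the GATA1 list was 72.4%, and it was 74.2%, 70.0% and 67.4% at 5, 25 and 50 kb. At 50 kb the share of isolated GATA1 intervals in both lists was 28.5% and the median width 380 bp. That share was 36.9% when intervals under the pooled median width were dropped, and 14.5% among those. The difference in share between isolated and other GATA1 intervals was -5.67 points as listed. It was -8.81 points with the others weighted to the width classes of the isolated ones. Distances between centres, neighbours from the GATA1 list alone, chromosomes 1 to 22, and leaving out centromeric, variable and stalk bands kept each value computed under them within its interval, or within 1.5 times for the number and the difference. The weighting by width, the setting without those bands and the difference itself were chosen after seeing the data. Alternatives that need hg19 sequence or genes (motifs, transcription starts and gene lists) were not run. No paired analysis was possible because each factor had 1 library. Unknown depth limits every share.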
